A study of Homo sapiens with 6 samples.

Results

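The genes described here are 10 of the NF-kB system in KGN, a human granulosa-like tumour cell line. They were taken by name from the count table and are 10 of its 20030 gene names. The list of names uses no measured value but was drawn up with earlier results of these data known. They comprise the 5 subunit genes NFKB1, NFKB2, REL, RELA and RELB, the 3 IkB inhibitor genes NFKBIA, NFKBIB and NFKBIE, TNFAIP3, and the kinase gene MAP3K14. RNA was sequenced 48 h after transfection. The control group has 3 libraries from cells given a negative control siRNA, with the genotype label WT. The knockdown group, named here after its genotype label, has 3 libraries from cells given siRNA to the long noncoding RNA SNHG5 (SNHG5 siRNA in the plots). All 6 libraries are of the same line, so they stand for 1 tumour. The labels name 1 siRNA treatment per group and do not say whether the replicates were separate cultures, so the spread behind each p may be technical. The level of SNHG5 was not analysed here, so the reduction that the knockdown label states was not checked.

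NF-kB is a family of dimeric transcription factors that share a DNA-binding domain and are held inactive in the cytoplasm by IkB proteins. In the canonical pathway, signals from cytokine and Toll-like receptors activate the IKK kinase complex, which marks the IkB proteins for destruction and frees dimers such as p50 with RelA. In the noncanonical pathway, the kinase NIK, encoded by MAP3K14, drives the processing of the NFKB2 product to p52, which pairs with RelB. The released dimers raise transcription of several of their own subunit and inhibitor genes, among them NFKBIA, NFKBIE, TNFAIP3, NFKB2 and RELB, and so form feedback loops. In granulosa cells NF-kB is known as a mediator of inflammatory signals around ovulation.

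The promoters are shown because several of these genes are textbook targets of the factor they encode. Windows of 300 bases, 250 before and 50 after a RefSeq start site (GRCh38.p14), were available for 8 of the 10 genes, 13 windows in all. RELB and NFKBIE had no window, so their promoters were not searched. The 10-base kB consensus was searched on both strands. It was found in 7 of these 13 windows and in 6 of the 8 genes, against 7.73% of all 35116 windows and 9.16% of all 27305 genes with a window. A match describes letters in the window and is not evidence of binding. For NFKBIA, the 250 bases before the start site (chr14:35404750-35404999, minus strand) held a match at position -81 from the start, in capitals:
NFKBIA: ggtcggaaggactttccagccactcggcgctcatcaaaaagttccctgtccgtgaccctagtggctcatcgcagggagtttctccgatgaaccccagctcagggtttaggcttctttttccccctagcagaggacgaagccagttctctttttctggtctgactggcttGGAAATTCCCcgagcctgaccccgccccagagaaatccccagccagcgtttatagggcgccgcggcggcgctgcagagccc

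The other matches are shown in 30 bases each, 5′ to 3′ on the strand of the gene, with the match in capitals. NFKB2 has 3 start sites among these windows. The windows of the middle start and the last start held 2 matches each, and that of the start furthest upstream held none. The stretches shown are chr10:102394461-102394490 and chr10:102394490-102394519 for the middle start. For the last start they are chr10:102395519-102395548 and chr10:102395674-102395703. In the GENCODE v29 annotation the matches of the middle start lie in an exon of another transcript. Of the last start, the upstream match lies in an intron and the other at the edge of an exon. The other stretches, with the place of the match, are of NFKB1 (chr4:102501300-102501329, before the gene), REL (chr2:60881518-60881547, exon), NFKBIB (chr19:38899931-38899960, intron) and TNFAIP3 (chr6:137867182-137867211 and chr6:137867194-137867223, exon). These are also plus-strand genes. The 2 stretches of TNFAIP3 overlap, while the matches in them do not. The letters of NFKBIA, REL and TNFAIP3 match the consensus on the opposite strand of the gene:
NFKB2, middle start, upstream: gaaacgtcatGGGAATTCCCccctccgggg
NFKB2, middle start, downstream: gggccgagaaGGGGCTTTCCcggccctgag
NFKB2, last start, upstream: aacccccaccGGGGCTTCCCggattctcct
NFKB2, last start, downstream: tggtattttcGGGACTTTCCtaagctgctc
NFKB1: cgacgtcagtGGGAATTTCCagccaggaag
REL: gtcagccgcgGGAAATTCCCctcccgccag
NFKBIB: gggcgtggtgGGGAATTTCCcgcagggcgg
TNFAIP3, upstream: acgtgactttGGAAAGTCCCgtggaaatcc
TNFAIP3, downstream: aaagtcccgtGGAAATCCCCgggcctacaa
NFKBIB held a further match, at position 38 after the start. The 2 windows of RELA and the window of MAP3K14, whose product acts upstream of the dimers, held none.

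The libraries held 18232634 to 22088913 counts, and the 10 genes had 117 to 1560 counts in any library. Of the granulosa marker list 7 of 10 were high enough to be tested, with a summed level of 242 to 247 CPM (counts scaled to library size by TMM) in the control group and 216 to 227 CPM in the knockdown group. FOXL2 was at 24.1 to 33.6 CPM over all libraries, while GATA4 was at 105.8 to 107.7 CPM in the control group and 79.5 to 84.6 CPM in the knockdown group. FSHR (2.97 to 3.42 and 1.16 to 1.85 CPM) and WT1 (0.690 to 0.770 and 0.316 to 0.553 CPM) were also lower without overlap. NR5A1 was higher without overlap (35.0 to 37.1 and 38.0 to 39.1 CPM), and AMH and INHBA overlapped between the groups. INHA, AMHR2 and CYP19A1 were at 0.553 CPM or below in every library. The leukocyte markers CD3E, MS4A1 and LYZ were at 0 in all 6 libraries, and that list summed to 44.4 to 51.2 CPM in the control group and 46.4 to 50.1 CPM in the knockdown group, nearly all of it CD68 and CD74. Endothelial, theca or stromal and epithelial lists summed to 32.1 to 36.1, 5531 to 5874 and 1.43 to 1.98 CPM in the control group, and to 15.3 to 18.3, 4255 to 4550 and 0.993 to 1.80 CPM in the knockdown group. KDR gave most of the endothelial sum, where CDH5 was at 0, and COL1A1 nearly all of the stromal sum, where CYP17A1 and LUM were at 0. The part of other cell types in the results was not tested. Counts of knockdown replicate 2 differed more from those of its group, by a chi-square over degrees of freedom of 8.62 and 8.82, than replicates 1 and 3 did from each other (1.91) or any pair of control libraries (3.10 to 4.41).

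In the knockdown group, 7 of the 10 genes fell (NFKB2, RELA, RELB, NFKBIA, NFKBIE, TNFAIP3 and MAP3K14), 1 rose (NFKBIB) and 2 did not pass (NFKB1 and REL). Passing means a Benjamini-Hochberg adjusted p below 0.05 in the quasi-likelihood test of edgeR, over 12508 genes; all 10 genes were among those. In the background, 40.2% of the tested genes passed, 19.9% lower and 20.3% higher; the 10 genes are not a sample drawn blind to these data. Of the passing genes 50.5% were thus higher, and 39.9% with upper quartile scaling in place of TMM. The median log2 fold change of the 10 genes was -0.48, against -0.01 over all tested genes. CPM of the groups did not overlap in 8 of the 10 genes, against 49.8% of tested genes. The data are from bulk RNA, so a lower level in each cell and fewer cells with the transcript cannot be told apart.

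**Figure D1:**
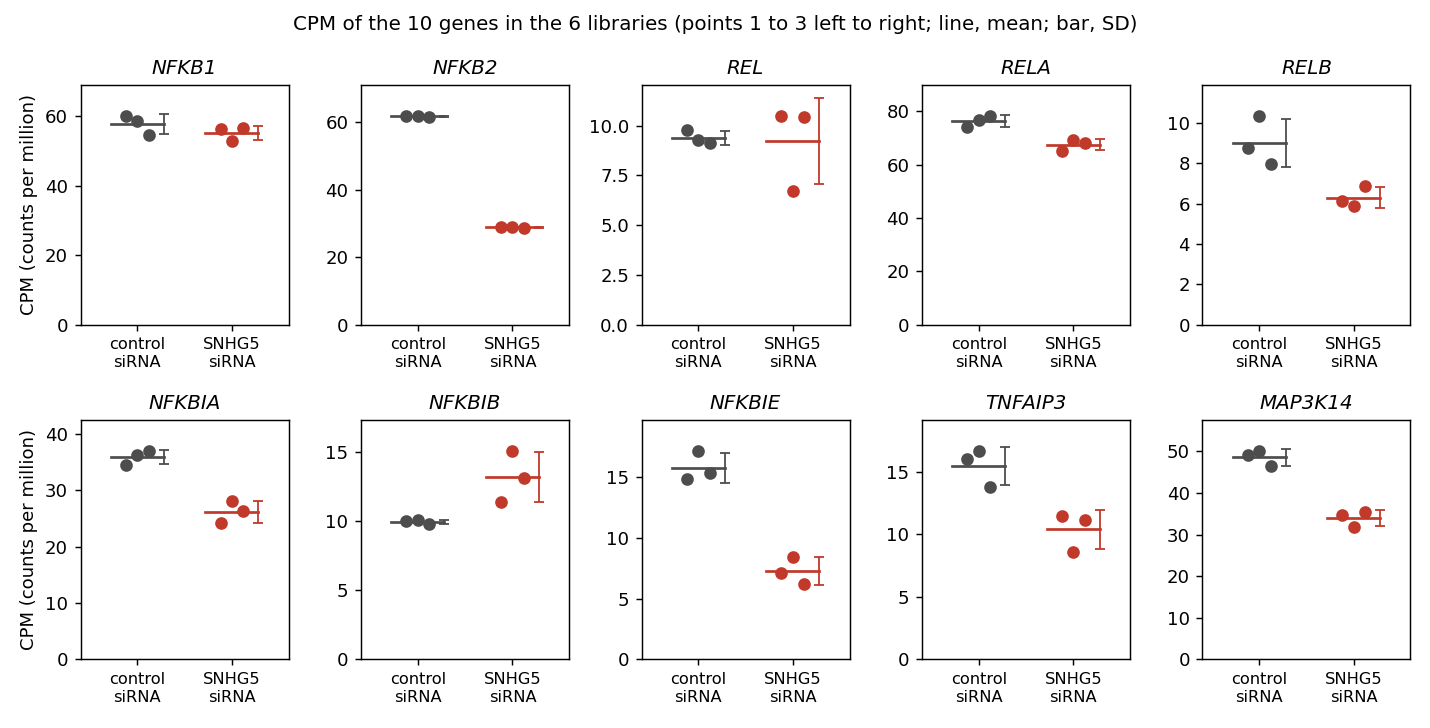
CPM of each of the 10 genes (vertical axis, from 0) in the 3 control and 3 knockdown libraries; points are libraries, lines the means and bars the SD. NFKB2 had 61.6 to 61.8 CPM in the control group and 28.6 to 29.03 CPM in the knockdown group, while NFKB1 and REL overlapped between the groups.

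NFKB2 encodes the precursor of p52 (chromosome 10, 102394110 to 102402529, plus strand). It had 61.8, 61.8 and 61.6 CPM in control replicates 1, 2 and 3 and 28.9, 29.03 and 28.6 CPM in knockdown replicates 1, 2 and 3. The groups stood far apart and the replicates of each lay close together. Means were 61.7 ± 0.0835 CPM and 28.9 ± 0.207 CPM (SD, n = 3 per group, as for every mean given here). With 556 to 1264 counts per library, SDs this small are below what counting error alone gives, so they do not measure the precision. The log2 fold change was -1.10 ± 0.06 (SE), a 2.14-fold lower level (adjusted p = 6.67e-11 by edgeR).

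NFKB1 is the paralogue of NFKB2 and encodes the precursor of p50 (chromosome 4, 102501329 to 102617302, plus strand). It had 60.0, 58.7 and 54.4 CPM in the control group and 56.4, 53.0 and 56.5 CPM in the knockdown group. The groups overlapped, and the log2 fold change of -0.06 (95% interval -0.19 to 0.06; adjusted p = 0.438 by edgeR) did not pass. The ratio of NFKB2 to NFKB1, each in FPKM (fragments per length and depth, as deposited), was 0.914 ± 0.0664 in the control group and 0.476 ± 0.0398 in the knockdown group. On counts, the log2 of this ratio differed by -1.04. An exact 2-sided permutation test gave p = 0.1, which is the smallest that 3 against 3 samples allow, and an adjusted p of 0.1 over the 4 ratios of members tested.

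RELA encodes p65, the main activating partner in canonical dimers (chromosome 11, 65653596 to 65663094, minus strand). It had 74.0, 76.8 and 78.2 CPM in the control group and 65.1, 69.4 and 68.0 CPM in the knockdown group. Each knockdown library was below each control library, by a small margin. RELA fell by 0.18 ± 0.06 on the log2 scale (SE; adjusted p = 0.0167 by edgeR). The call was lost without control replicate 2 (-0.17, adjusted p = 0.0591) or 3 (-0.16, 0.0508), without knockdown replicate 1 (-0.15, 0.0937), and with the GC trend removed (-0.12, 0.0735). On log2(FPKM + 1) with limma RELA had -0.067 (adjusted p = 0.430), and its FPKM overlapped between the groups, at 23.4, 25.4 and 26.6 in the control group and 22.8, 25.5 and 23.5 in the knockdown group. FPKM per CPM of RELA, in percent of the control mean, was 96.2 to 103 in the control group and 105 to 112 in the knockdown group, so the 2 deposited tables do not scale alike for this gene.

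RELB encodes the partner of p52 (chromosome 19, 45001430 to 45038198, plus strand). It had 8.74, 10.3 and 7.97 CPM in the control group and 6.14, 5.89 and 6.90 CPM in the knockdown group. The groups did not overlap, and control replicate 2 was the highest library. RELB fell by 0.52 ± 0.12 on the log2 scale (SE; adjusted p = 0.00223 by edgeR). On log2(FPKM + 1), which understates changes of low genes, it had -0.32 (adjusted p = 0.00735 by limma). On log2(FPKM + 0.1) it had -0.40 (adjusted p = 0.00621 by limma). FPKM per CPM of RELB, in percent of the control mean, was 96.7 to 105 in the control group and 97.8 to 113 in the knockdown group. The part of each in the smaller value was not tested. The ratio of RELB to RELA in FPKM was 0.155 ± 0.0174 in the control group and 0.122 ± 0.00808 in the knockdown group, with an exact permutation p of 0.1 on counts, the smallest possible.

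REL encodes c-Rel, best known in lymphocytes (chromosome 2, 60881521 to 60931610, plus strand). It had 9.77, 9.26 and 9.13 CPM in the control group and 10.5, 6.74 and 10.5 CPM in the knockdown group. Knockdown replicate 2 was the lowest library, and the other 2 of its group were above each control library. The log2 fold change was -0.02 (95% interval -0.31 to 0.26; adjusted p = 0.909 by edgeR), and without knockdown replicate 2 it was 0.16 (adjusted p = 0.271). REL has the longest annotated transcript of the 10 genes, 11255 bases, and across tested genes the deviation of that library from its group mean had a Spearman correlation of -0.494 with transcript length (across genes, which are not independent replicates). The part of this trend in the level of REL was not tested. REL also shares 5702 exonic bases with AC010733.2, a gene on the same strand that was not analysed here, so its level is uncertain. In the other libraries that correlation ranged from -0.250 to 0.396.

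Among the inhibitors, NFKBIE, which encodes IkB-epsilon (chromosome 6, 44258166 to 44265788, minus strand), fell by 1.12 on the log2 scale. It had 14.9, 17.1 and 15.3 CPM in the control group and 7.13, 8.45 and 6.23 CPM in the knockdown group. The highest knockdown library was far below the lowest control library. The level was 2.17-fold lower, with an SE of 0.11 on the log2 scale (adjusted p = 2.12e-07 by edgeR).

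NFKBIA encodes IkB-alpha, the inhibitor that is resynthesised fastest after activation (chromosome 14, 35401511 to 35404749, minus strand). It had 34.5, 36.3 and 37.0 CPM in the control group and 24.2, 28.1 and 26.4 CPM in the knockdown group. The groups were well separated. NFKBIA fell by 0.46 ± 0.07 on the log2 scale, to a 1.37-fold lower level (SE; adjusted p = 8.69e-05 by edgeR).

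NFKBIB, which encodes IkB-beta (chromosome 19, 38899700 to 38908893, plus strand), was the member that rose. It had 10.0, 10.1 and 9.79 CPM in the control group and 11.4, 15.1 and 13.1 CPM in the knockdown group. The control libraries lay close together and the knockdown libraries, all higher, were spread widely, with replicate 2 on top. With 178 to 205 counts in each control library, their closeness does not measure the precision. NFKBIB rose by 0.40 ± 0.10 on the log2 scale, 1.32-fold (SE; adjusted p = 0.00489 by edgeR), and 0.30 (adjusted p = 0.0232) without knockdown replicate 2. NFKBIB shares 40 exonic bases with SIRT2, a deacetylase gene on the opposite strand, which rose from 21.3 ± 2.27 to 29.4 ± 0.678 CPM (log2 fold change 0.47, adjusted p = 2.32e-04 by edgeR). The sources used here do not say whether the counting used strand, so reads in the shared bases cannot be told apart.

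The ratio of NFKBIE to NFKBIB in FPKM was 0.880 ± 0.0742 in the control group and 0.292 ± 0.0349 in the knockdown group, and that of NFKBIA to NFKBIB was 3.001 ± 0.104 and 1.55 ± 0.152. The groups did not overlap in either ratio, with an exact permutation p of 0.1 for each on counts. The log2 differences on counts were -1.52 and -0.85.

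TNFAIP3 encodes a ubiquitin-editing enzyme that shuts off signalling to IKK (chromosome 6, 137867188 to 137883312, plus strand). It had 16.0, 16.6 and 13.7 CPM in the control group and 11.4, 8.60 and 11.2 CPM in the knockdown group. The groups did not overlap, and knockdown replicate 2 was the lowest library. The log2 fold change was -0.57 ± 0.11 (SE; adjusted p = 3.64e-04 by edgeR), and -0.45 (adjusted p = 2.22e-04) without knockdown replicate 2. On log2(FPKM + 1) it was -0.28 (adjusted p = 0.00937 by limma).

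MAP3K14 encodes NIK, the kinase of the noncanonical pathway (chromosome 17, 45263119 to 45317145, minus strand). It had 49.1, 50.1 and 46.4 CPM in the control group and 34.8, 31.7 and 35.4 CPM in the knockdown group. The groups were clearly separated. MAP3K14 fell by 0.51 ± 0.07 on the log2 scale, to a 1.43-fold lower level (SE; adjusted p = 5.62e-06 by edgeR). MAP3K14 shares 713 exonic bases with an antisense gene, MAP3K14-AS1, which was not analysed here. TNFAIP3 likewise shares 95 exonic bases with an antisense gene.

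**Figure D2:**
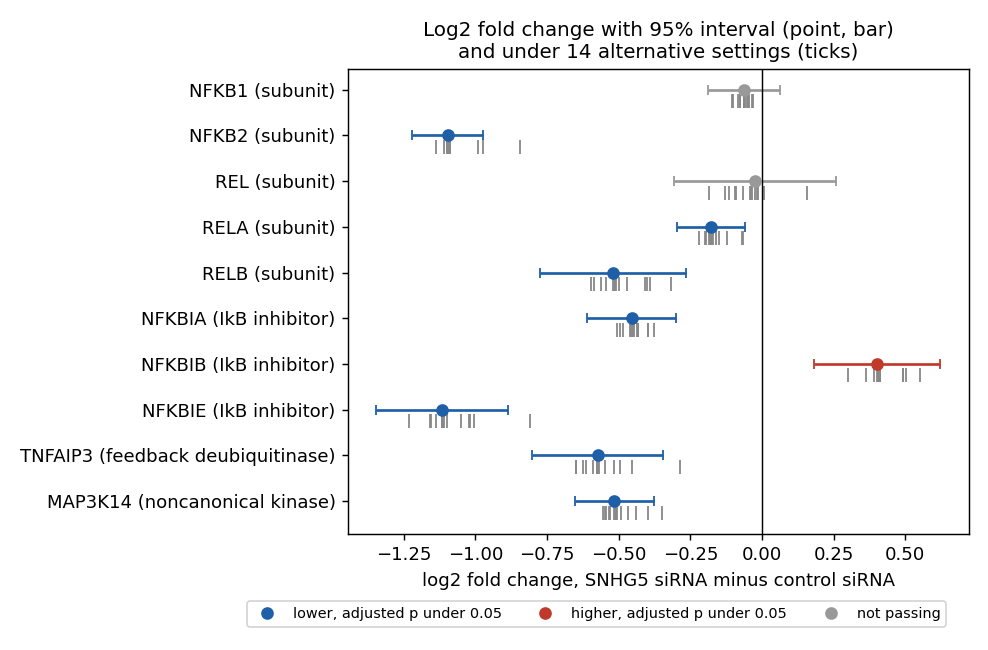
Log2 fold change of each gene (horizontal axis, knockdown minus control) with its 95% interval, and as ticks its values under 14 alternative settings. NFKB2 and NFKBIE lie furthest to the left, at -1.10 and -1.12, NFKBIB lies to the right of 0 at 0.40, and the ticks of REL fall on both sides of 0.

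Levels of different genes were compared per length, in FPKM. In the control group the order was RELA (25.2 ± 1.59), NFKBIA (18.03 ± 0.890), NFKB1 (9.06 ± 0.378), NFKB2 (8.26 ± 0.279), MAP3K14 (7.26 ± 0.295), NFKBIB (6.01 ± 0.148), NFKBIE (5.28 ± 0.445), RELB (3.88 ± 0.382), TNFAIP3 (1.35 ± 0.131) and REL (1.06 ± 0.0670). No neighbours in this order overlapped over their 3 libraries. In the knockdown group NFKBIB (8.93 ± 1.55) stood beside NFKB1 (8.75 ± 0.260), and NFKB2 (4.16 ± 0.223) came after MAP3K14 (5.48 ± 0.132). NFKBIE (2.60 ± 0.482) stood beside RELB (2.91 ± 0.0264), and REL (0.942 ± 0.239) beside TNFAIP3 (0.927 ± 0.112). These 3 pairs overlapped, and other neighbours did not. The order depends on the measure. In counts over the longest annotated transcript length, NFKB2 was above NFKB1 in the control group (29.7% and 23.2% of the subunit sum). NFKBIE was likewise above NFKBIB there (18.1% and 13.5% of the IkB sum).

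RELA made up more than any other subunit gene of the summed FPKM of the 5 in every library. Its share was 51.4%, 52.6% and 55.0% in the control group and 57.3%, 60.9% and 58.2% in the knockdown group. The share of NFKB2 was 17.4%, 17.3% and 17.5% in the control group and 10.2%, 10.5% and 9.87% in the knockdown group. These shares do not overlap between the groups, so the subunit transcripts held proportionally more RELA and less NFKB2 in the knockdown group. The mean FPKM of RELA was 25.2 ± 1.59 and 24.0 ± 1.41, so its share rose without a rise in its level. NFKB1 had a share of 19.1% ± 1.34 and 21.5% ± 1.20, with groups that overlapped. From counts divided by the length of the longest annotated transcript, NFKB2 went from 29.7% ± 0.387 to 18.1% ± 0.377 and RELA from 39.4% ± 1.28 to 45.4% ± 1.43. In that measure NFKB1 went from 23.2% ± 1.03 to 28.9% ± 0.935, without overlap between the groups. The 2 kinds of share differ in the deposited table as well as in the length used, and the part of each was not tested. FPKM per CPM of NFKB2, in percent of the control mean, was 96.1 to 103 in the control group and 104 to 114 in the knockdown group.

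Within the 3 IkB genes, NFKBIB went from 20.5% ± 0.733 to 35.3% ± 2.01 of their summed FPKM. NFKBIA went from 61.5% ± 0.440 to 54.4% ± 2.60 and NFKBIE from 18.01% ± 0.918 to 10.3% ± 1.20. The groups did not overlap for any of the 3. In counts per length NFKBIB went from 13.5% ± 0.507 to 23.3% ± 1.146 and NFKBIA from 68.4% ± 1.09 to 65.7% ± 1.51. FPKM per CPM of NFKBIB, in percent of the control mean, was 97.4 to 105 in the control group and 102 to 118 in the knockdown group, so part of its rise in FPKM is not in the counts. The summed FPKM of the IkB genes over that of the subunit genes was 0.609, 0.618 and 0.628 in the control group and 0.592, 0.680 and 0.582 in the knockdown group. In this ratio the groups overlapped, with means of 0.618 ± 0.00933 and 0.618 ± 0.0538. No test was made of these sums over the chosen genes.

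**Figure D3:**
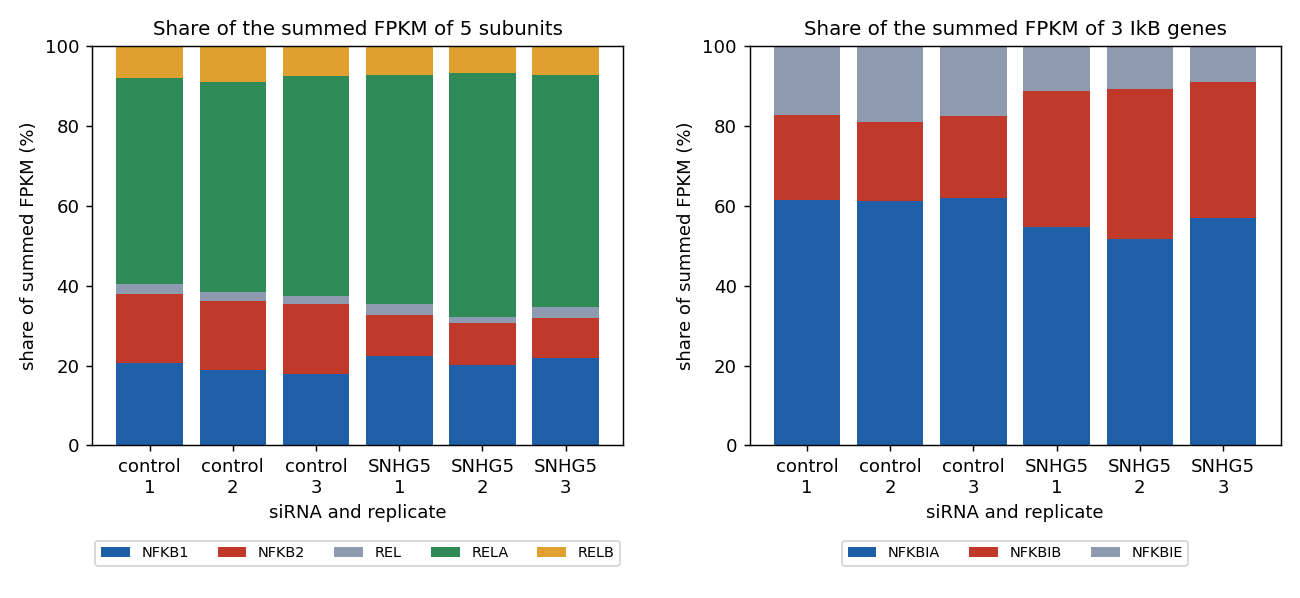
Share of each gene in the summed FPKM (vertical axis, percent) of the 5 subunit genes (left) and of the 3 IkB genes (right) in each library. The NFKB2 segment is 17.3% to 17.5% in the control group and 9.87% to 10.5% in the knockdown group, and the NFKBIB segment is larger in all 3 knockdown libraries.

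The machinery around these genes was described with 6 lists that do not include the 10 genes; BIRC3, CHUK, OTUD7B, BCL3 and NFKBIZ each stand on 2 lists. Of 101 genes in all, 85 were tested, of which 11 rose, 27 fell and 47 did not pass, with a median log2 fold change of -0.08. The lists are described by counts and medians, with the 40.2% of all genes that passed as the background.

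Of 16 receptor and adaptor genes tested, 2 rose, 5 fell and 9 did not pass, with a median of -0.10. TLR4, the receptor of lipopolysaccharide, fell from 65.1 ± 2.64 to 48.3 ± 0.815 CPM (log2 fold change -0.43, adjusted p = 1.05e-05 by edgeR), and TLR3, a sensor of double-stranded RNA, fell by 0.35. IL1R1, the receptor of interleukin-1, rose by 0.39, and the adaptor gene MYD88 fell by 0.30. The call of MYD88 was lost without control replicate 1 (-0.23, adjusted p = 0.0643) and on log2(FPKM + 1) (-0.21, adjusted p = 0.0589).

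Of 16 genes of the IKK complex and its activators, 4 fell and 12 did not pass, with a median of -0.04. The 3 core IKK genes did not pass: CHUK had a log2 fold change of 0.01, IKBKB 0.15 and IKBKG -0.07. TAB2, which links the kinase TAK1 to ubiquitin chains, fell from 224 ± 4.90 to 149 ± 7.54 CPM (log2 fold change -0.59, adjusted p = 6.10e-08 by edgeR). The IKK-related kinase gene IKBKE fell by 0.57 (-0.23 on log2(FPKM + 1), where it still passed) and RNF31, the catalytic subunit of the linear ubiquitin ligase, by 0.36. MAP3K8, a kinase gene, fell by 0.63. Its call was lost without control replicate 1 (-0.44, adjusted p = 0.0537), and the value was -0.21 on log2(FPKM + 1) (adjusted p = 0.0581).

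Of the noncanonical arm 9 of 11 genes were tested, of which 2 rose, 2 fell and 5 did not pass, with a median of 0.03. TRAF3, which directs NIK to degradation, rose from 34.7 ± 2.07 to 48.2 ± 2.65 CPM (log2 fold change 0.47, adjusted p = 1.98e-05 by edgeR), and TRAF2, its partner, rose by 0.30. BIRC3, a ubiquitin ligase of the same complex and itself a target gene, was 2.48-fold lower, at 11.1 ± 0.381 and 4.49 ± 0.460 CPM (log2 fold change -1.31, adjusted p = 4.83e-08 by edgeR) and -0.62 on log2(FPKM + 1). OTUD7B, a deubiquitinase of TRAF3, fell by 0.20. The call of TRAF2 was lost without control replicate 3 (0.25, adjusted p = 0.0693). That of OTUD7B was lost without control replicate 1 (-0.15, 0.108) or knockdown replicate 1 (-0.20, 0.0504) and on log2(FPKM + 1) (-0.16, 0.0867). The receptor gene CD40 was at 0 in all 6 libraries, where 3 counts, the limit that a count of 0 allows, are 0.135 to 0.165 CPM. BIRC2, a ubiquitin ligase of the same complex as BIRC3, did not pass (0.11 on the log2 scale, adjusted p = 0.126 by edgeR). The receptor genes LTBR (log2 fold change -0.0052) and TNFRSF12A (0.03) did not pass.

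Of 8 genes of the ligase that destroys IkB proteins, 1 rose by 0.14 (CUL1, the scaffold) and 7 did not pass, with a median of -0.02. Without knockdown replicate 2, 3 genes passed, and without control replicate 2 or knockdown replicate 1, 0 passed by edgeR, with 2 at an unadjusted p under 0.05 in each case. CUL1 also missed the threshold with upper quartile scaling (0.10, adjusted p = 0.128), with the GC trend removed (0.10, 0.0791) and without control replicate 1 (0.13, 0.136).

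Of 18 other IkB proteins and negative regulators, 1 rose, 8 fell and 9 did not pass, with a median of -0.14. TNIP1, a partner of the TNFAIP3 protein, fell from 80.3 ± 6.02 to 49.8 ± 0.949 CPM (log2 fold change -0.69, adjusted p = 7.64e-08 by edgeR). BCL3, a nuclear IkB protein that works with p50 and p52 dimers, fell by 0.45, PDLIM2 by 0.35 and NFKBIZ, another nuclear IkB gene, by 0.34. Without control replicate 1, 4 of the 18 passed; NFKBIZ then had -0.25 (adjusted p = 0.0905). BCL3 had -0.18 on log2(FPKM + 1) (adjusted p = 0.0565).

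Of 37 target genes 23 were tested, of which 5 rose, 12 fell and 6 did not pass, with a median of -0.31. After BIRC3 the largest differences were in CXCL2, a chemokine gene, at -1.21, PTGS2, which encodes the prostaglandin synthase of ovulation, at 1.12, and VCAM1, an adhesion molecule gene, at -1.06. VCAM1 went from 3.25 ± 0.222 to 1.56 ± 0.182 CPM (adjusted p = 2.55e-04 by edgeR). On log2(FPKM + 1) VCAM1 had -0.34 and PTGS2 0.18, and both passed. CXCL2 and PTGS2 were near 1 CPM or below, at 0.796 ± 0.170 and 0.339 ± 0.0753 CPM and at 0.551 ± 0.196 and 1.18 ± 0.151 CPM. The call of CXCL2 was lost without control replicate 1 (-1.03, adjusted p = 0.102) or knockdown replicate 3 (-1.05, 0.0738), with DESeq2 (-1.23, 0.0628) and on log2(FPKM + 1) (-0.23, 0.190). That of PTGS2 was lost without control replicate 2 (0.92, 0.0681). Beside PTGS2, the target genes that rose, against 12 that fell, were CXCL8 (0.53), SDC4 (0.45), BCL2L1 (0.37) and SOD2 (0.30). BCL2L1 went from 151 ± 6.60 to 195 ± 2.01 CPM (adjusted p = 1.27e-05 by edgeR). SOD2 went from 81.7 ± 2.29 to 101 ± 2.90 CPM (adjusted p = 1.89e-04 by edgeR). TNF, CCL2, CCL20, CXCL10 and SELE were at 0 in all 6 libraries.

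**Figure D4:**
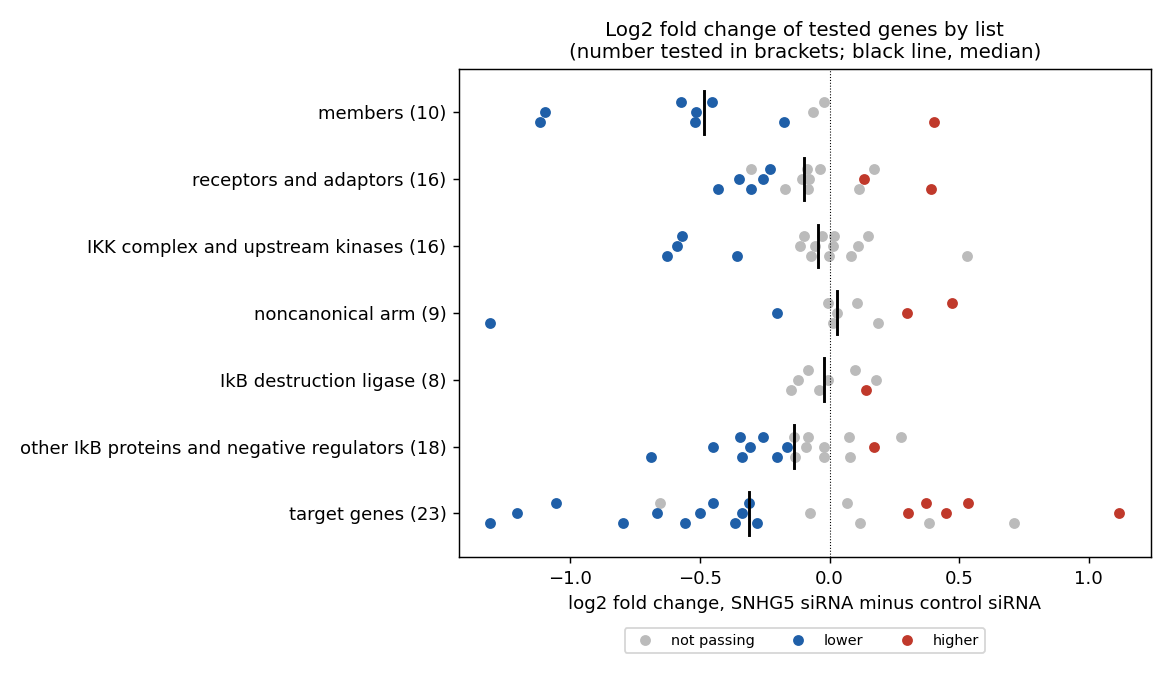
Log2 fold change of each tested gene (horizontal axis, points) by list, with the list's median as a black line and colours for genes that rose, fell or did not pass. The medians are -0.48 for the 10 genes, -0.31 for the target genes and between -0.14 and 0.03 for the other lists.

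For each member that passed, the 3 tested genes with the smallest Euclidean distance of centred log2 CPM over the 6 libraries were taken. The distance includes the difference between the groups itself. Nearest to NFKB2 were PRKD1, a protein kinase gene (26.7 and 12.4 CPM, distance 0.0930), HOGA1 (4.81 and 2.10 CPM, distance 0.103) and LFNG, a modifier of Notch (61.5 and 29.7 CPM, distance 0.112). Nearest to NFKBIE were JUNB, an AP-1 subunit gene (11.1 and 5.45 CPM, distance 0.204), TRPV4, a calcium channel gene (distance 0.211), and EGLN3 (distance 0.212). Nearest to RELB was ADAMTS7 (distance 0.102), to NFKBIA CAVIN2 (0.0513), to TNFAIP3 CFAP69 (0.124), to MAP3K14 NFIC (0.0668), to RELA C1orf43 (0.0265) and to NFKBIB RABEP2 (0.0610). None of the 24 nearest genes was a member or on the 6 lists.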

How the data were processed

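The members and gene lists were chosen with earlier results of these data known. Libraries were made with a SMARTER mRNA-seq kit from 1 µg of RNA, per the labels' protocols. Per the submitters' processing notes, reads were trimmed with Trimmomatic and the build was GRCh38; aligner, counter, annotation and strand setting are not given in the sources used here. Deposited counts are whole numbers with a different total in each library. FPKM come from a further table that the authors deposited, made with an unnamed tool. In each library 410 to 478 names had a 0 in only 1 of these 2 tables, so main values rest on counts.

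TMM scaling used edgeR 4.0.16 in R 4.3.3, and 12508 names that passed filterByExpr were tested with the quasi-likelihood test (2-sided); 7522 were not tested. Each log2 fold change is SNHG5 siRNA minus control siRNA, and the SE is the estimate over the root of F. The script was tested on simulated data. DESeq2 1.42.0 and limma 3.58.1 gave alternatives, as did upper quartile scaling, no filter, removal of GC or length trends (GENCODE v29, lowess), the replicate number as a block and leaving out each library. Floors and the intervals of ratios of counts include no other error than that of counting. Replicate numbers were not used as pairs. Named pathway genes were up to 4 passing genes per list with the largest absolute log2 fold change. BIRC2, core IKK genes, the noncanonical receptors, the further target genes that rose and genes at 0 were named after their values were seen. Python 3.11.15 and matplotlib 3.10.9 were used for tables and plots.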

Additional observations from a re-analysis of the deposited data

How the results depend on the processing

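Across 14 alternatives, 7 or 6 members fell and 1 rose; 132 of 140 member values kept their direction and side of the threshold, as did 255 of 280 values of the 20 named pathway genes. Over all genes, 3991 to 5714 passed, and 3991 to 5608 with 1 library left out. Upper quartile scaling, with 39.9% of calls higher and 50.5% in the main test, changed no member's call. RELA no longer passed on log2(FPKM + 1) (-0.067), log2(FPKM + 0.1) (-0.069) or with the GC trend removed (-0.12), and had -0.20 to -0.15 with 1 library left out. REL, which passed in none, changed sign without control replicate 1 (0.0068) and knockdown replicate 2 (0.16); it had -0.13 to 0.16 with 1 library left out and -0.19 to 0.16 over all 14. On log2(FPKM + 1), where a low gene's change is understated, RELB had -0.32 and TNFAIP3 -0.28. On log2(FPKM + 0.1) RELB had -0.40 and TNFAIP3 -0.50. With the GC trend removed, NFKB2 (-0.99), NFKBIE (-1.02), MAP3K14 (-0.44), NFKBIA (-0.43) and RELB (-0.39) fell less than in the main test. TNFAIP3 (-0.58) did not, and NFKBIB rose more (0.49). Over 12348 tested genes, GC-rich transcripts tended to be lower in the knockdown group (Spearman -0.221, with genes not being independent replicates). What gave rise to this trend was not tested. The count of passing ligase genes, 1 in the main test, was 2 with upper quartile scaling, both FPKM settings and the GC trend removed, 3 with no filter and the length trend removed, 4 with the replicate block, and 0 to 3 with 1 library left out. That of other IkB proteins and negative regulators, 9 in the main test, was 4 to 8 with 1 library left out. The difference in the share of NFKB2 among subunits was -7.22 percentage points in FPKM and -11.6 in counts per length. The causes were not tested. Whether replicate numbers pair the samples was not established. Same-numbered deviations correlated at 0.0463, 0.130 and 0.0264, and different-numbered ones at -0.116 to 0.0843. In each group 2 of 3 libraries correlated best with their own number. With the replicate block 5714 genes passed, against 5026 in the main test, and the same 7 members were lower and 1 higher. Genes under about 1 CPM, such as CXCL2, are limited by depth.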

Other observations

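Of the target genes, 6 had counts in both groups but were too low to be tested; CSF2, BCL2A1 and MMP9 had 1, 1 and 2 counts in the knockdown group and 0 in the control group. IL1B, which encodes the cytokine interleukin-1 beta, had 11, 5 and 12 counts in the control group and 2, 0 and 1 in the knockdown group. Per library size, knockdown over control was 0.103, with an exact 95% interval for counting error of 0.0200 to 0.333. TNFRSF9, a receptor of the tumour necrosis factor family, had 7, 10 and 9 counts in the control group and 1, 1 and 2 in the knockdown group, a ratio of 0.148 (0.0374 to 0.425). CXCL1 had 6, 16 and 3 counts and 4, 2 and 4 counts, with a ratio of 0.384 (0.164 to 0.827) and groups that overlapped. IL1A had a ratio of 0.521 (0.281 to 0.936), ICAM1 of 0.576 (0.222 to 1.40) and CCL5, with 3 counts in all, of 0.480 (0.00813 to 9.21). With no filter on low counts, edgeR's quasi-likelihood test gave an adjusted p of 9.84e-04 for IL1B and 0.00381 for TNFRSF9. The other 4 did not pass, with 0.105 for CXCL1, 0.178 for IL1A, 0.484 for ICAM1 and 0.772 for CCL5. Giving these low genes was decided after their values were seen.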
